A study of Mus musculus with 18 samples.

Results

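Collagens, laminins, matrix metalloproteinases (MMPs) and tissue inhibitors of metalloproteinases (TIMPs) build, hold and cut the extracellular matrix. Genes were taken by symbol from the protein-coding genes of GENCODE M21 on the mm10 mouse genome, which gave 81 genes of 21938, made up of 44 collagens, 11 laminins, 22 MMPs and 4 TIMPs. Chromatin accessibility had been measured by ATAC-seq, in which the Tn5 transposase cuts open DNA, in wild-type bone marrow-derived macrophages (BMDMs) that the methods describe as grown from the marrow of male C57/BL6 mice. All cells received DMSO, the solvent of the study's kinase inhibitors, for 1 h, and were then left without stimulus or given LPS or IL-4 (each 10 ng/mL) for 30 min, 1 h, 2 h or 4 h, with 2 libraries in each of the 9 groups. LPS engages TLR4 and drives inflammatory activation, and IL-4 drives alternative activation through STAT6. The 3 deposited lists, of 82391 reference peaks, 59617 extended regions and 84660 summits, are pooled over the 18 libraries and hold no column for any library. A peak could therefore come from any of the groups, the effects of stimulus, time and replicate were not analysed here, and the depth behind each peak is unknown. All 8 macrophage markers examined (among them Csf1r, Spi1 and Adgre1) had a peak within 1000 bp of a start site. Markers of other cell types had one in 3 of 8 (fibroblast), 3 of 6 (endothelial), 0 of 6 (epithelial), 2 of 7 (neutrophil) and 2 of 6 (lymphocyte) cases. The part of other cells in the marrow culture in the values of the matrix genes was not tested.

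Collagen chains fold in threes into triple helices that form fibrils or networks, and laminins join an alpha, a beta and a gamma chain into the cross-shaped trimers of basement membranes. MMPs are zinc-dependent endopeptidases, mostly made as inactive precursors, that cut these proteins and also process cytokines and growth factors, and TIMPs bind and block their active sites. Fibroblasts, endothelial and epithelial cells are known as the main sources of matrix, whereas macrophages are known for secreting matrix proteases such as the macrophage elastase Mmp12 and the gelatinase Mmp9.

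Sequences are shown first for peaks of genes to which the values below return, each printed around a match to 1 of 7 motifs searched on both strands within 100 bp of a summit. Motifs were AP-1 (TGACTCA), PU.1/ETS (GAGGAAGT), SP/KLF (GGGCGGG), C/EBP (TTGCGCAA), RUNX (TGTGGTTT), STAT6 (TTC and GAA with 4 bases between them) and NF-kB (searched by its degenerate kappaB letters). No motif contains another, and a search of both strands also reads TGAGTCA as AP-1. Bases come from the RefSeq copy of GRCm38.p6, the assembly behind mm10, run 5′ to 3′ on the strand of the gene, stop short of annotated exons, and carry the named motif in capitals.

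The first 4 show promoters and an intron of the Mmp gene cluster of chromosome 9, with AP-1 letters in Mmp13, Mmp1b and the Mmp12 intron and PU.1/ETS letters, read here on the opposite strand, before the first start of Mmp12.
Mmp13 promoter (chr9:7272444-7272513, plus strand): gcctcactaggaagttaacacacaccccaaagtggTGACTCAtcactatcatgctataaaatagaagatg
Mmp1b promoter (chr9:7388078-7388154, minus strand): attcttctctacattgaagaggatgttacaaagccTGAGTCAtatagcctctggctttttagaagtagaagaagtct
Mmp12 promoter (chr9:7344274-7344351, plus strand): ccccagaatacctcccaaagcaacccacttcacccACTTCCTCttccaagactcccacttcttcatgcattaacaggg
Mmp12 intron (chr9:7347295-7347371, plus strand): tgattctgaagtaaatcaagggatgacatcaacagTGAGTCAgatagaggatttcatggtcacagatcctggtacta

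The next 4 show the PU.1/ETS letters near intronic summits of the MMPs with the most extended regions nearby among those with such a match (Mmp14 and Mmp9) and near the best start-site summit of Col15a1, and the AP-1 letters at the best gene-body summit of Col4a2.
Mmp14 intron (chr14:54442678-54442755, plus strand): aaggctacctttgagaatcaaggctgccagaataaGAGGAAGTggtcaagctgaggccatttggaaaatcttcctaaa
Mmp9 intron (chr2:164943151-164943228, plus strand): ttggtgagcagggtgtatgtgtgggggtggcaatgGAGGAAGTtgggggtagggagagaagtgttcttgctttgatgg
Col15a1 intron (chr4:47303484-47303561, plus strand): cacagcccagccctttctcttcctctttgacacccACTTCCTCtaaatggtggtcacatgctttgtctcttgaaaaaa
Col4a2 intron (chr8:11411833-11411909, plus strand): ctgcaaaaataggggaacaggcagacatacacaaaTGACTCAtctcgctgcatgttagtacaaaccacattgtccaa

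The last lies next to the start-site summit of Lamc1, the highest of all members, and holds SP/KLF letters on the opposite strand centred 85 bp from that summit. The later stretch of the same letters in capitals lies farther from the summit, outside the searched window, and is not among the counted matches.
Lamc1 promoter (chr1:153332974-153333050, minus strand): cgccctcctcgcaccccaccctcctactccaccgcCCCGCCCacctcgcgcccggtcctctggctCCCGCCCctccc

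Accessible start sites were more frequent among the proteases than among the collagens. A reference peak lay within 1000 bp of an annotated start site in 13 of 22 MMPs (59.1%, 95% Wilson interval 38.7 to 76.7) and in 9 of 44 collagens (20.5%, 11.2 to 34.5), and these intervals did not overlap. The share over all protein-coding genes was 56.5%, so that the MMPs stood near the background and the collagens below it. When peaks had to reach the median score of the summit list, the MMPs fell to 7 of 22 (31.8%, 16.4 to 52.7) against 50.7% of all genes, and the collagens to 4 of 44 (9.09%, 3.59 to 21.2). With a window of 2500 bp the counts were 14 of 22 MMPs (63.6%, 43.0 to 80.3) and 15 of 44 collagens (34.1%, 21.9 to 48.9) against 59.9% of all genes, and under both of these settings the intervals of MMPs and collagens overlapped. Of the laminins, 3 of 11 (27.3%, 9.75 to 56.6) had such a peak, and of the TIMPs 2 of 4, intervals too wide to be placed. Intervals cover counting error only and treat genes as independent. They do not replace a test, which lists without replicates do not allow. The 22 MMPs are not independent, since 9 of them lie together in a cluster on chromosome 9.

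**Figure D1:**
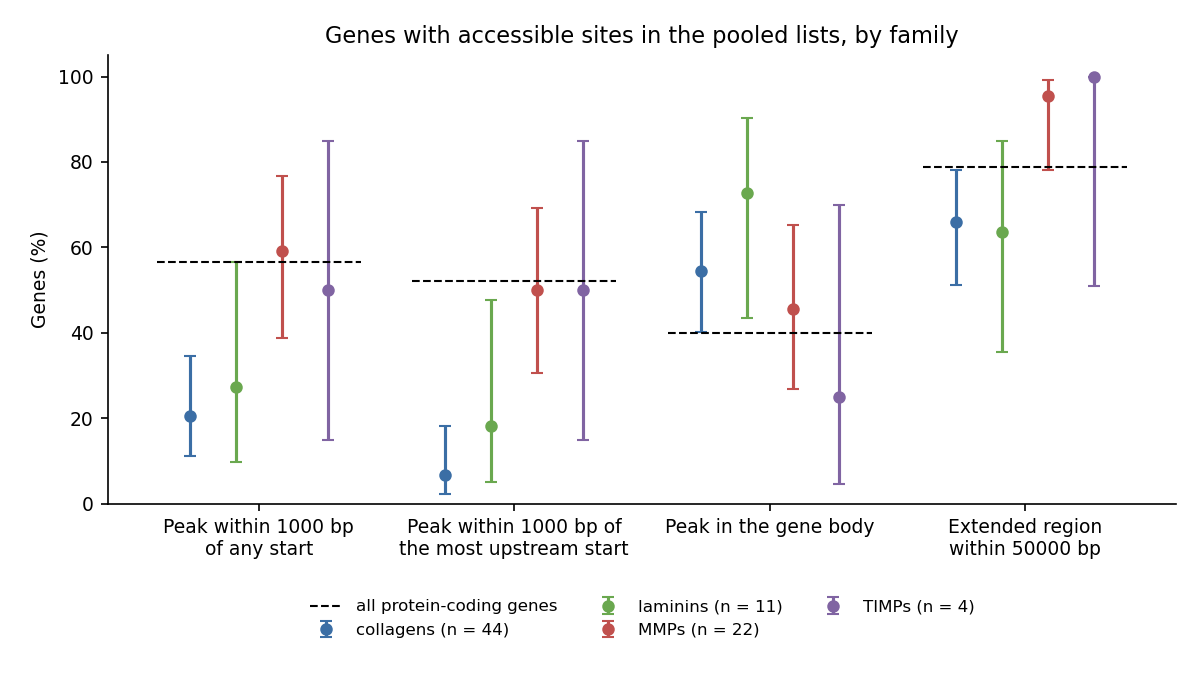
Share of genes (%, y axis) in each family with a peak near any start site, near the most upstream start site, in the gene body, or with an extended region nearby (x axis). Points are families, bars 95% Wilson intervals and dashed lines all protein-coding genes. Collagens lie at 20.5% for any start site and 6.82% for the most upstream one, against 59.1% and 50.0% for MMPs.

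The gap was wider at the most upstream start of each gene, where 3 of 44 collagens (6.82%, 2.35 to 18.2) and 11 of 22 MMPs (50.0%, 30.7 to 69.3) had a peak, against 52.1% of all protein-coding genes. Start sites rich in CpG dinucleotides are commonly open in many cell types, and CpG-rich starts were fewer among the members (22 of 81, 27.2%) than among all protein-coding genes (44.4%). Within the CpG-rich class, 6 of 11 collagens, 1 of 5 laminins and 3 of 5 MMPs had a start-site peak, against 85.2% of all genes of that class. At the most upstream start these were 1 of 11 collagens, 1 of 5 laminins and 2 of 5 MMPs. Within the CpG-poor class, 10 of 17 MMPs (58.8%, 36.0 to 78.4) and 3 of 33 collagens (9.09%, 3.14 to 23.6) had one, against 33.7% of all genes of that class. At the most upstream start the CpG-rich members with a peak numbered 4 of 22 (18.2%, 7.31 to 38.5), against 83.3% of all CpG-rich genes. The CpG-poor members with one numbered 14 of 59 (23.7%, 14.7 to 36.0), against 27.1% of all CpG-poor genes, made up of 9 of 17 MMPs, 2 of 33 collagens, 1 of 6 laminins and 2 of 3 TIMPs.

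Among the fibrillar collagens, which form the tensile fibres of skin, bone and tendon, 3 of 11 had a start-site peak. The peak of Col1a1, a chain of type I collagen, had a summit score of 613 and lay 888 bp inside the gene, and Col11a2 (878) and Col27a1 (878) had peaks only at internal starts. Neither Col1a2, the partner chain of Col1a1, nor Col3a1, the chain of type III collagen, had any peak in the gene, and their nearest peaks lay 83213 bp and 483441 bp from the most upstream start. The summit score is column 5 of the summit list, whose scale was not stated and whose median over all summits was 737.

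The type IV collagens form the network of basement membranes and are coded by 3 head-to-head gene pairs. The starts of Col4a1 and Col4a2 lie 21 bp apart and had no peak within 9866 bp, although both chains had a peak near an internal start, with scores of 467 and 563. Col4a2 held 11 further peaks in its introns, with scores from 242 to 1357, and Col4a1 held 5. The pair Col4a3 and Col4a4 (starts 72 bp apart) had no extended region within 50000 bp of its starts, and its nearest peak, of score 634 inside Col4a3, lay 114647 bp away. The pair Col4a5 and Col4a6 on chromosome X shared 1 region, and Col4a6 held 4 gene-body peaks while Col4a5 held none.

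None of the 6 beaded filament collagens (Col6a1 to Col6a6, which form microfibrils around cells) and none of the 9 fibril-associated collagens, which coat fibrils, had a start-site peak. Both multiplexins, Col15a1 and Col18a1, basement membrane collagens that carry heparan or chondroitin sulphate chains, had one. The Col18a1 peak lay 9 bp before the first start with a score of 349. Col15a1 had the highest start-site score of the collagens, with 3 peaks at internal starts, the best scoring 1619 at 95292 bp inside the gene, where the PU.1/ETS letters printed above lie 69 bp from the summit. The transmembrane collagen Col23a1 had a peak of score 812 that lay 207 bp before its first start and had a repeat-masked summit, and the network collagen Col8a2 had one of 430 at an internal start.

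Of the laminin chains, only Lamc1, the gamma-1 chain found in most laminin trimers, had a high start-site summit. It scored 1696 at 311 bp before the first start, in a peak of 549 bp with 2 summits, above the median of 1456 for all protein-coding genes with a start-site peak. Lama3, an alpha chain of epithelial laminin, had a peak of 613 at 102 bp inside its first start. Lamb3, its beta-chain partner, had one of 274 whose summit lay 1079 bp from an internal start, so that only the edge of the peak was in the window. No start-site peak was found in Lama1, Lama2, Lama4, Lama5, Lamb1, Lamb2 and Lamc3. Of these, Lama5 had the nearest peak, at 1829 bp, and Lama2, the alpha chain of muscle laminin, the farthest, at 501685 bp.

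The collagenases, a class in which Mmp8 and Mmp13 are known to cut fibrillar collagen and Mmp1b is placed by its likeness to human MMP1, all had a peak at their single start, Mmp8 with a score of 956 at 74 bp before it, Mmp13 with 945 at 69 bp and Mmp1b with 421 at 41 bp. Mmp9, a gelatinase that macrophages secrete, had 3 start-site peaks, of 486 near its first start and of 769 and 458 near internal starts. Mmp2, the other gelatinase, had a peak of 812 only at an internal start. Mmp12, the macrophage elastase, had peaks of 458 and 439 at its first and an internal start.

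Of the membrane-type MMPs, which act at the cell surface, 3 of 6 had a start-site peak, Mmp17 (900), Mmp14 (515) and Mmp25 (458). Mmp14, the activator of pro-Mmp2, had its summit 64 bp before the first start. Mmp15, Mmp16 and Mmp24 had no start-site peak, and Mmp16 had the most distant nearest peak of all members, 1637628 bp from its start. Of the stromelysins, which cleave a wide range of matrix proteins, Mmp3 and Mmp10 had none, and the peak of Mmp11 (900) also lay within 1000 bp of a start of Chchd10, a mitochondrial protein gene on the opposite strand, so that it cannot be given to either gene. Mmp28 (780, 4 bp before its start), Mmp19 (524) and Mmp23 (515, at an internal start) were the other MMPs with one, and the matrilysin Mmp7 had none.

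Timp2, which also takes part in the activation of pro-Mmp2 on Mmp14, had the highest start-site score of MMPs and TIMPs, 1117 at 352 bp inside its first start. Timp1 had a peak of 393 with its summit on its first base, and Timp3 and Timp4 had none, with nearest peaks 3932 bp and 15835 bp away. Timp1, Timp3 and Timp4 lie inside the synapsin genes Syn1, Syn3 and Syn2, on the opposite strand.

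Start-site summits of the members were low, and gene-body summits were not. The best start-site score had a median of 613 in collagens (n = 9, range 349 to 1619), 613 in laminins (n = 3, 274 to 1696) and 769 in MMPs (n = 13, 421 to 956), against 1456 over all protein-coding genes with a start-site peak (quartiles 1071 and 1799). With the 1000 bp window all 13 MMPs thus lay below the lower quartile of all genes, and of the members only Col15a1, Lamc1 and Timp2 lay above it. Of the 12402 genes with a start-site peak, 8292 had CpG-rich starts, against 10 of the 27 members with one. Scores were not matched for CpG class, and its part in the low scores was not tested. A window of 2500 bp, with a lower quartile of 1059 over all genes, placed 9 of 36 members at or above it, adding Col11a2, Col16a1, Lamb2, Mmp9, Mmp11 and Mmp14 through peaks that the narrower window leaves out. The best gene-body score, for peaks in the gene but away from its starts, had a median of 985 in collagens, 850 in laminins and 991 in MMPs, near the 968 of all genes. In genes with both kinds of peak, the gene-body summit was the higher in 17 of 20 members (85.0%, 64.0 to 94.8), namely in 7 of 8 collagens, 2 of 3 laminins, 7 of 8 MMPs and Timp2, against 28.3% of all genes with both. This takes the best of all gene-body peaks, 23 of them in Col15a1, and gene length and peak number were not matched. With the 2500 bp window the best gene-body summits of Mmp9, Mmp12 and Col11a2 count as start-site summits, and the share was not recounted.

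**Figure D2:**
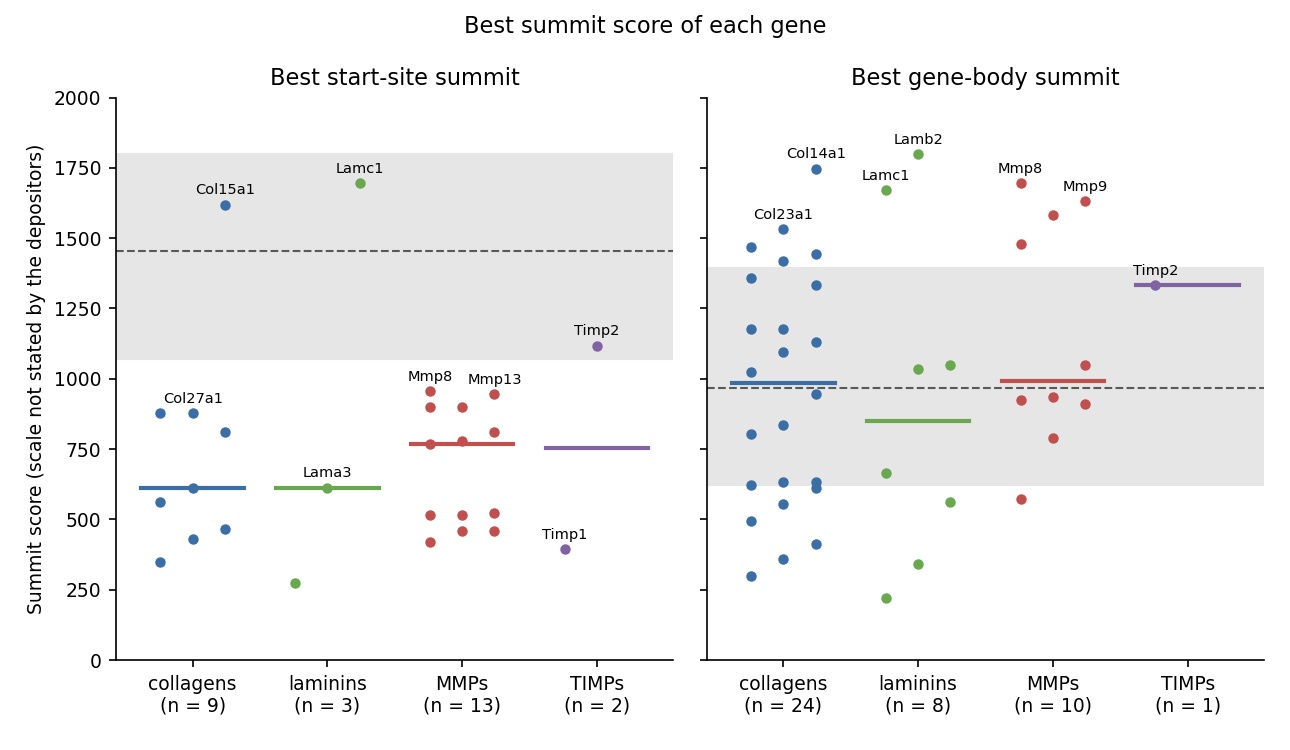
Best summit score (y axis, scale not stated) of each gene with a start-site peak (left) or a gene-body peak (right), by family (x axis). Points are genes, solid lines family medians, the dashed line and grey band the median and quartiles of all protein-coding genes. Only Col15a1 (1619), Lamc1 (1696) and Timp2 (1117) reach the grey band on the left.

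Gene bodies held most of the peaks of these genes. Of 187 distinct peaks, 34 were start-site and 153 gene-body peaks, and 142 of the latter had their summit in an intron. Over all protein-coding genes there were 21221 start-site and 33573 gene-body peaks, so that gene bodies held more there too. A gene-body peak was present in 24 of 44 collagens (54.5%, 40.1 to 68.3), 8 of 11 laminins, 10 of 22 MMPs and 1 of 4 TIMPs, together 43 of 81 members (53.1%), against 39.9% of all protein-coding genes. Collagens and laminins are long, with median gene lengths of 114388 bp and 113865 bp against 14412 bp for MMPs and 17425 bp for all genes. Among genes of at least 50000 bp the order turned, with a gene-body peak in 16 of 29 collagens (55.2%, 37.5 to 71.6) and 6 of 9 laminins against 73.4% of all genes of that length. Per 10000 bp of gene, the pooled number was 0.19 in collagens, 0.145 in laminins and 0.395 in MMPs, and 0.333 over all genes.

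Single genes decided much of this density. Col15a1 held 23 gene-body peaks, with scores from 266 to 1443, or 2.19 per 10000 bp, and 0.807% of all protein-coding genes held as many. Without it the collagens fell to 0.15 per 10000 bp. Mmp14 held 6 peaks in 13753 bp (4.36 per 10000 bp, matched or exceeded by 0.624% of all genes), with scores of 1443, 515, 282, 1493, 1581 and 563 from its start to its end, and without it the MMPs fell to 0.307. The Mmp14 start-site summit, at 515, was thus lower than 4 of the 6 gene-body summits and equal to another.

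After Col15a1 and Col4a2 came Col23a1, Col25a1 and Col27a1, the latter a cartilage collagen, each with 9 gene-body peaks. Per 10000 bp these came to 0.306, 0.192 and 0.744, against 0.333 pooled over all genes. Lama3 held 8, Lama2 6 (all between 501783 bp and 623891 bp from its first start), Lamc1 4, Lama5 2, and Lama1, Lama4, Lamb2 and Lamb3 1 each, while Lamb1 and Lamc3 held none. The Lamc1 intron peaks lay between 27811 bp and 33148 bp from the start and scored 1493, 515, 1272 and 1670. The best gene-body summit of any member, 1799 in Lamb2, lay just outside the gene in an exon of its neighbour Usp19. In the MMPs, Mmp2, Mmp24 and Mmp28 held 4 each and Mmp12 held 2, and the single peaks of Mmp8 (1696) and Mmp9 (1632) exceeded the start-site summits of those genes. The Mmp8 summit lay 9085 bp into the 10030 bp of the gene, in an exon outside the coding part, as did the best Mmp2 summit (1480), 26019 bp into 26130 bp.

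**Figure D3:**
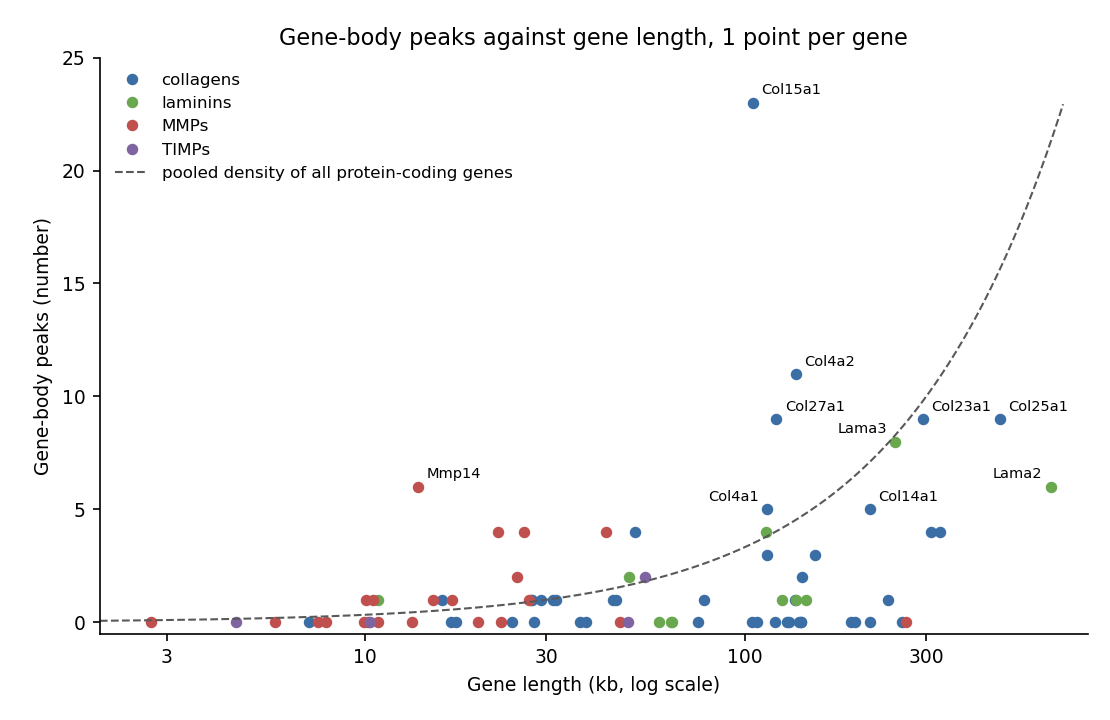
Number of gene-body peaks (y axis) against gene length (kb, log scale, x axis), with 1 point per gene coloured by family. The dashed line is the pooled density of all protein-coding genes, 0.333 per 10000 bp. Col15a1 (23 peaks) and Mmp14 (6 peaks in 13753 bp) stand far above the line, and many collagens lie at 0.

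Extended regions were found near more of the MMPs than of the collagens. Each of the 59617 regions ran from 700 bp before the first to 700 bp after the last reference peak inside it, so that a region marks 1 peak or a run of close peaks and is no separate measurement. At least 1 lay within 50000 bp of the most upstream start in 21 of 22 MMPs (95.5%, 78.2 to 99.2), 29 of 44 collagens (65.9%, 51.1 to 78.1), 7 of 11 laminins and 4 of 4 TIMPs, against 78.9% of all protein-coding genes. The median number was 5.5 for MMPs, 2 for collagens, 1 for laminins and 5 for TIMPs, against 4 over all genes. Mmp14 had 16, and 1.19% of all genes had as many or more, followed by Mmp24 with 13, Mmp9 with 11, Col9a2 and Col11a2 with 10 and Timp2 with 9. Of all protein-coding genes, those with over 2 other starts in the window had a region in 84% of cases and the rest in 76.3%. The windows held a median of 1 other protein-coding start in collagens, in laminins and in MMPs and of 2 over all genes, but over 2 others were present in 9 of 22 MMPs, 4 of 44 collagens and 1 of 11 laminins. All of these crowded windows held a region, and the part of neighbouring genes in the difference between the families was not tested. Where at most 2 other starts were present, 12 of 13 MMPs, 25 of 40 collagens and 6 of 10 laminins had a region.

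Neither a peak in the gene or near a start nor an extended region in the window was found for 15 members (18.5%, 11.6 to 28.3), against 19.9% of all genes. They included 12 collagens, Lamb1 and Mmp16, and the collagens included Col1a2, Col3a1, Col5a2, Col11a1 and Col24a1 of the fibrillar class and Col6a2, Col6a4, Col6a5 and Col6a6 of the beaded filament class. At the other end of the 54 members without a start-site peak, the nearest peak lay just past the window in Col14a1 (1231 bp), Mmp27 (1347 bp), Col13a1 (1413 bp), Col9a2 (1607 bp) and Lama5 (1829 bp). Besides Mmp16, Lama2 and Col3a1, the farthest were in Col11a1 (400211 bp) and Col5a2 (291697 bp), the latter sharing its nearest peak with Col3a1.

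**Figure D4:**
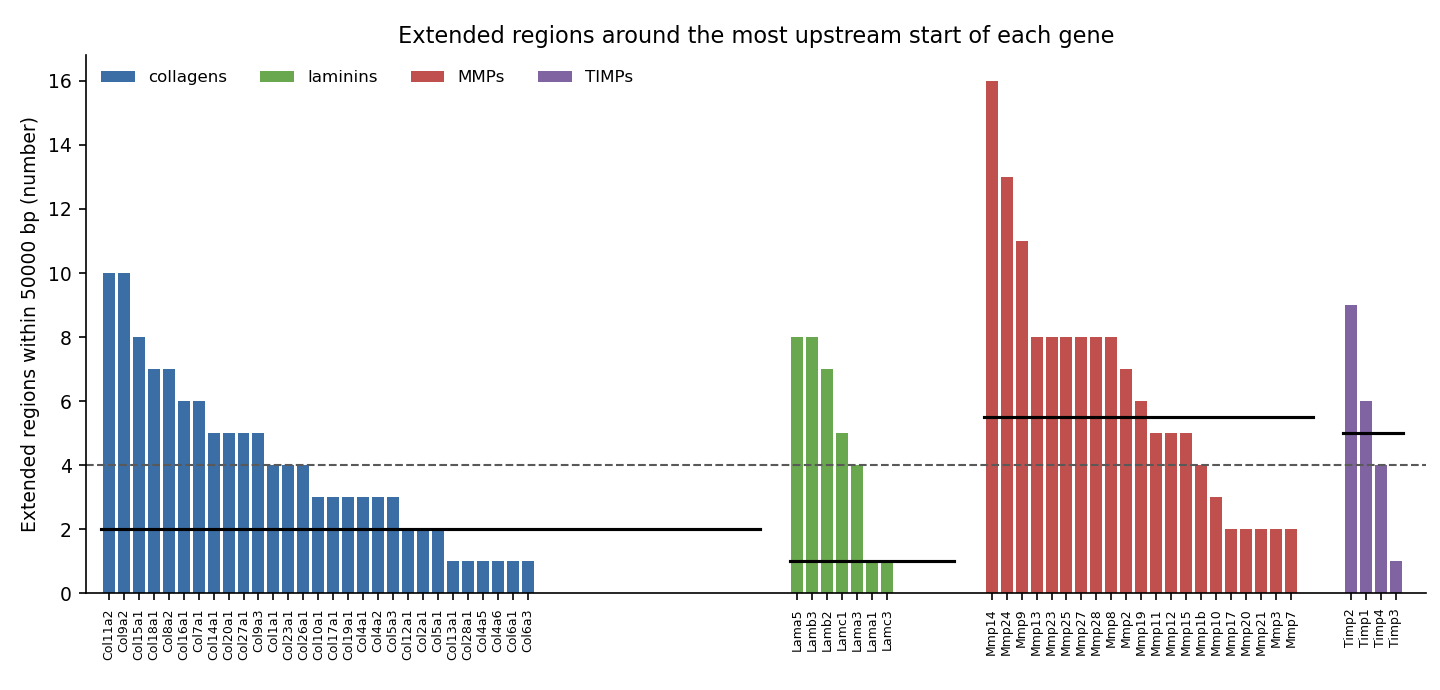
Count of extended regions up to 50000 bp from the first start (y axis) for each gene (x axis), sorted within families and named where the count is above 0. Black lines are family medians and the dashed line the median of all protein-coding genes, 4. MMPs reach 16 (Mmp14) and only Mmp16 has none, whereas 15 collagens have none.

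Of the 22 MMPs, 9 lie in 1 cluster of 427 kb on chromosome 9 (chr9:7272514-7699585), in which no other protein-coding gene overlapped. The cluster held 22 peaks and 16 extended regions. Mmp13, Mmp12, Mmp1b and Mmp8 had start-site peaks, and Mmp3, Mmp10, Mmp27, Mmp20 (the enamel protease enamelysin) and Mmp7 had none. The highest summits were not at starts. They were 1696 at the end of Mmp8, 1493 at 323 kb from the Mmp13 start, and 1406 in each of 2 peaks upstream of Mmp12, which were followed by summits of 979 and 1200 nearer to it. Windows of neighbours overlapped, so that 25 distinct regions were counted 42 times over the 9 genes, and Mmp8 and Mmp27 shared all 8 of theirs. Around Mmp3 and Mmp10, 1 peak each lay nearest, with scores of 613 and 411.

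**Figure D5:**
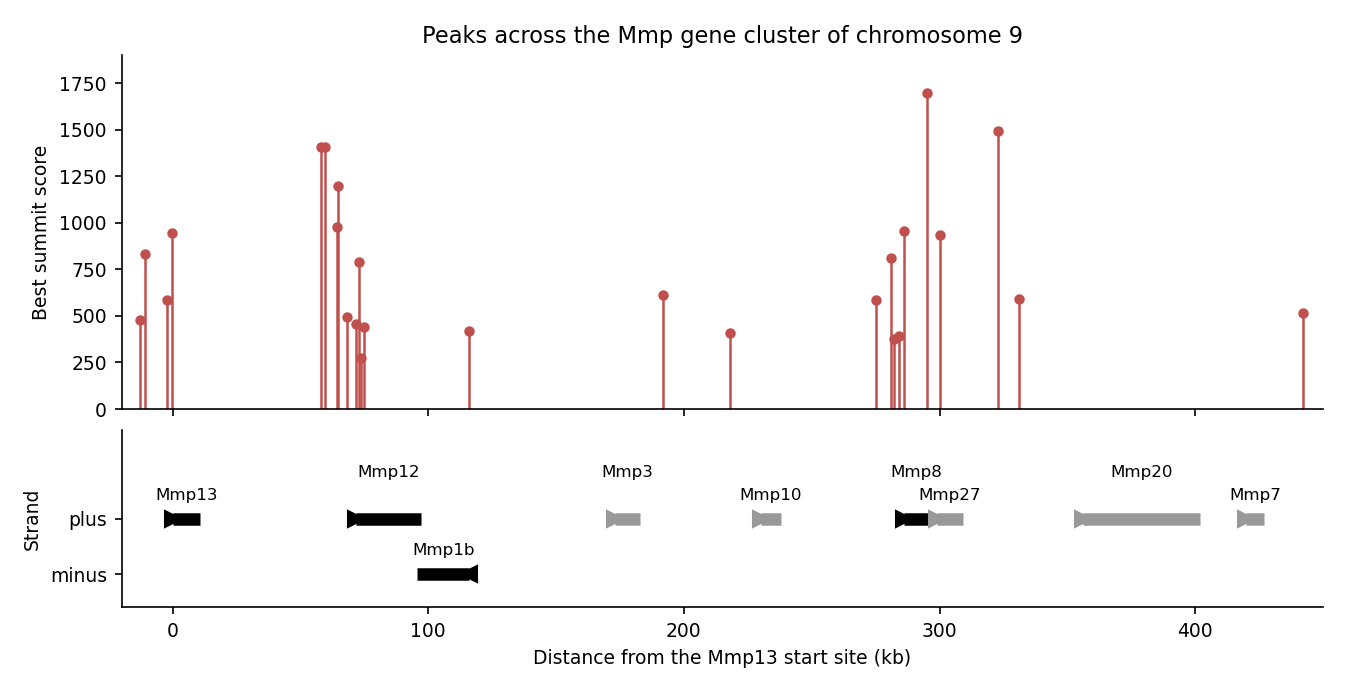
Best summit score of each peak (top, y axis) and the genes of the Mmp cluster by strand (bottom, arrowheads at the starts), by distance from the Mmp13 start (kb, x axis). Black genes have a start-site peak and grey genes do not. Peaks gather around Mmp12 and Mmp8, and Mmp3, Mmp10, Mmp20 and Mmp7 have none within the gene.

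AP-1 letters, the site of Fos and Jun factors, were found near the summits of 5 of 16 MMP start-site peaks (31.2%), in Mmp13, Mmp1b, Mmp19, the internal start of Mmp12 and an internal start of Mmp9. The share over the 21221 start-site peaks of all protein-coding genes was 6.99%, and 9.48% at genes with CpG-poor starts, where 5 of 13 MMP peaks held them. In Mmp13, Mmp19 and Mmp1b the letters were centred 32, 29 and 69 bp before the start. The RefSeq promoter windows, from 250 bases before to 50 bases after a start and matched for 61 members by symbol, held AP-1 letters in 6 of 17 MMPs against 5.4% of 16522 genes. All 6 belong to the chromosome 9 cluster, as do Mmp13, Mmp1b and Mmp12 of the start-site matches. None of the MMPs with a window outside the cluster held the letters. A peak overlapped the window in 3 of the 6 (Mmp12, Mmp13 and Mmp1b) and not in the other 3 (Mmp3, Mmp7 and Mmp10). Over all genes it did in 388 of the 893 whose window held the letters (43.4%).

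In gene bodies, AP-1 letters lay near 32 of 102 collagen summits (31.4%), 8 of 24 laminin summits and 4 of 25 MMP summits, against 19.2% of 33573 gene-body peaks of all genes. They came from 16 of the 24 collagens with such a peak, and the share without Col15a1 was 30.4%. PU.1/ETS letters lay near 16 of 153 gene-body summits of members (10.5%), against 10.8%, and the printed intron sites of Mmp14 and Mmp9 are among them. At start sites, kappaB letters were found at 6 of 34 member peaks (17.6%) against 5.13%. Of those 6 peaks, only that of Mmp25 lay at a most upstream start. SP/KLF letters were found at 9 of the 34 start-site peaks (26.5%) against 31.9%, and STAT6 letters at 2 (5.88%, both in Col15a1) against 4.32%. C/EBP letters were found at 0 of 34 against 0.254%, a share that 34 peaks are too few to be set against. In gene bodies, kappaB letters lay near 10 of 153 member summits (6.54%) against 5.51%, and STAT6 letters near 5 of 153 (3.27%) against 7.74%. A match says only that the letters are present, and binding was not measured here.

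Genes that work with these families were counted in the same way. Collagen-folding and cross-linking enzymes had a start-site peak in 7 of 16 cases (43.8%, 23.1 to 66.8), among them the prolyl hydroxylase subunits P4ha1, P4ha2 and P4hb and the lysyl hydroxylases Plod1 and Plod3, and not the collagen chaperone Serpinh1 or the cross-linking oxidases Lox, Loxl1, Loxl2 and Loxl4. Basement membrane and other matrix partners had one in 7 of 16, among them Fn1, Spp1, Thbs1, Vcan and Hspg2, and not Nid1, Sparc, Eln or Fbn1. Matrix receptors had one in 12 of 18 (66.7%, 43.7 to 83.7), including the integrins Itgb1 and Itgav and the collagen uptake receptors Mrc1 and Mrc2. Other matrix proteases and inhibitors had one in 18 of 24 (75%, 55.1 to 88.0), including Plau, Plaur, Ctsb, Ctsl, Ctss and Adam17, with a median best score of 1412, and not Ctsk, Plg or A2m. The intervals of all 4 lists include the 56.5% of all protein-coding genes.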

How the data were processed

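ATAC-seq libraries of BMDMs (18 samples, 9 groups of 2) had been single-end sequenced. Per the methods and the labels, the authors trimmed reads with BBDuk and Trimmomatic 0.39, aligned them to mm10 through ShortStack, filtered them with SAMtools 1.9 and called peaks with MACS2 2.2.6, without a model or local background, keeping duplicates and extending reads by a fixed length. Peaks at a stringent threshold shared by replicates were pooled. Keeping duplicates raises summits at sites amplified by PCR, and a peak open in 1 condition only stands in the list like any other. The deposited lists give positions only for peaks and extended regions (their column 5 is 0), and the deposited summit list gives a score for each summit, from 102 to 2781, whose scale was not stated. Library depth is unknown, and 0 columns belonged to other samples.

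Genes and start sites of all transcripts came from GENCODE M21 without the mitochondrial genome. Start-site peaks overlapped a start ± 1000 bp, gene-body peaks the gene outside these windows, and extended regions the most upstream start ± 50000 bp. CpG-rich starts had an observed over expected CpG of at least 0.6 and a GC content of at least 50% over 500 bp on each side. Shares carry 95% Wilson intervals (SciPy 1.17.1). No test was run, because the lists are pooled over libraries and genes are not replicates. Interval functions were checked on simulated data. Motifs and sequences were read from GRCm38.p6 with pysam 0.24.0. Python 3.11.15, NumPy 2.4.6 and Matplotlib 3.10.9 were used. Members, gene lists and rules were chosen with earlier results of these data known, and the roles, markers and matrix lists come from general knowledge. Named were members with a start-site peak, the laminins and TIMPs (values of 1 gene are not reported here), the 5 members per family with the best start-site score or the most gene-body peaks, the chromosome 9 cluster, the Col4 pairs, shared start-site peaks, and the 5 nearest and 5 farthest peaks. Genes named beyond this were picked after their values were seen. Other windows, start sites, score minima and peak definitions were tried as alternatives.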

Additional observations from a re-analysis of the deposited data

How the results depend on the processing

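Of 68 alternative values for the families, 47 stayed within 1.5 times the value given above and 21 did not. The collagen start-site count was 5 with a 500 bp window, 15 with 2500 bp, 3 at the most upstream start alone and 4 with summits at or above the median score. In the same order, the all-gene share was 54.9%, 59.9%, 52.1% and 50.7%, so collagens stayed below it. The laminin count was 5 with 2500 bp and 1 at or above the median score, where MMPs gave 7, below the all-gene share, and TIMPs 1. Gene-body counts at or above that score were 15 of 44 collagens and 4 of 11 laminins against 26.4% of all genes. With start-site peaks kept in, they were 25 of 44 collagens, 8 of 11 laminins, 15 of 22 MMPs and 2 of 4 TIMPs against 63.5%. Collagens then lay below the all-gene share, and not above it as in the main count. The median of extended regions with windows of 20000 bp and 100000 bp was 1 and 5 in collagens, 2 and 12 in TIMPs and 2 and 9 in all genes. At 100000 bp it was 4 in laminins and 10 in MMPs. It was 3 in laminins when the whole gene plus 50000 bp was searched, and 9 in MMPs when reference peaks were counted instead. The median best start-site score of laminins was 1154 with 500 bp or with the most upstream start alone, both of which leave out Lamb3. The best scores of single members stayed within 1.5 times in 120 of 128 cases. At 2500 bp Mmp9 reached 1632, Mmp11 1543, Mmp14 1443, Col11a2 1418, Col4a1 923, Mmp12 791 and Col18a1 716, and Mmp9 fell to 486 at the most upstream start alone. Other causes of these moves were not tested. No paired analysis was possible because the deposited lists hold no column per library and no test was made. Since depth per library is unknown, a gene without a peak had none detectable in these pooled lists, which does not show closed chromatin.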
